A study of Mus musculus with 10 samples.

Results

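The genes described here encode subunits of potassium, sodium and calcium channels, and 72 of the 21937 gene symbols in the deposited expression table belong to the set. They were chosen by name, as symbols of the Kcn families, of the sodium channel alpha subunits and of the calcium channel Cacna, Cacnb and Cacng families, and by a level of at least 1 RPKM (reads scaled by transcript length and library total) in 1 or more of the 10 libraries. The name pattern fits 129 symbols, of which 57 stayed under 1 RPKM in every library. Just inside the limit lay Cacna1d, Kcne3 and Kcnn3, with highest values of 1.0, 1.01 and 1.02 RPKM, and just outside it lay Kcnh3, Kcnrg and Cacng5, with 0.96, 0.96 and 0.95 RPKM. The set is broader than voltage gating in the strict sense. The Kcnj inward rectifiers, the Kcnk background channels and the calcium-activated Kcnn channels lack a voltage trigger, and several Cacng proteins regulate AMPA-type glutamate receptors. The sodium channel gene Scn2a is listed under its older symbol Scn2a1, which the name pattern does not take, so it is given beside the set and not counted in it.

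RNA came from mouse embryonic stem cells of a C57BL/6 background, with 1 library for each condition and day. In SFEB culture, a serum-free aggregate culture in which the cells become neuroectoderm, the source of the nervous system, Tet3 knockout cells given Dkk (KO + Dkk), Tet3 knockout cells (KO) and wild-type cells (WT) were taken on day 10 and day 6. Tet3 converts methylated cytosine to oxidised forms, and Dkk proteins block Wnt signals from outside the cell. In medium with fetal bovine serum (FBS), which does not favour a neural fate, Tet3-overexpressing cells and control cells were taken on day 7 and day 4. The knockout had lost a floxed exon through transient Cre expression, and the labels state neither how many clones were used nor the dose of Dkk nor how Tet3 was overexpressed. The libraries of a condition are therefore 1 line each as far as the labels tell, and genotype and line cannot be told apart.

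The FBS libraries held an estimated 17300000 to 44200000 reads, KO + Dkk on SFEB day 10 held 37200000, and the other 5 SFEB libraries 10100000 to 11300000. Tet3 itself stood at 13.1, 14.3 and 10.2 RPKM in KO + Dkk, KO and WT on day 10, against 7.64, 6.59 and 8.11 RPKM on day 6. Whole-gene values do not check the loss of 1 exon. On FBS day 7 Tet3 was at 14.1 RPKM in overexpressing and 5.87 RPKM in control cells, and on FBS day 4 at 12.5 and 0.96 RPKM. Of 14 neuron marker genes, all 14 rose between SFEB day 6 and day 10, and their summed level was 3166, 2682 and 2787 RPKM in KO + Dkk, KO and WT on day 10 and 191.8, 152.7 and 290.2 RPKM on day 6. In bulk RNA, more cells of a type and more RNA per cell cannot be told apart.

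Voltage-gated sodium channels carry the rising phase of the action potential, calcium channels turn depolarisation into transmitter release and intracellular signals, and potassium channels set the resting potential and end the spike. Each channel is a pore-forming subunit combined with auxiliary subunits that steer its traffic and gating. Neural progenitors express few of them, and neurons acquire a growing set as they become excitable. Heart, muscle, gland and transporting epithelia use other members of the same families.

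Upstream sequences are shown for 4 members, because Tet3 acts on methylated CpG sites and the members differ widely in how many CpG their starts hold. RefSeq start windows of 300 bases (build GRCm38.p6, 250 bases before and 50 after the annotated start) were found for 53 of the 72 members. Where a gene had several windows, the one with the most CpG was taken. The median window of those 53 held 19 CpG, and 39 of them, 73.6%, held 10 or more. Among all genes of the table with a window, 86.8% of the 9623 at 1 RPKM or more and 17% of the 5078 below 1 RPKM held 10 or more. The medians of these were 22 and 3 CpG. Cacna2d1 and Kcnd3 were among the largest risers of the SFEB culture. Kcnj13 and Kcnk16 reached 1 RPKM in few libraries, although Kcnk16 also rose in WT, from 0.11 RPKM on day 6 to 1.40 RPKM on day 10. The 4 were picked to show the range of CpG and do not stand for the members as a set. The 150 bases before each start follow, 5′ to 3′ on the gene's strand, with each CG dinucleotide in capitals.
Cacna2d1, chr5:15934541-15934690, plus strand: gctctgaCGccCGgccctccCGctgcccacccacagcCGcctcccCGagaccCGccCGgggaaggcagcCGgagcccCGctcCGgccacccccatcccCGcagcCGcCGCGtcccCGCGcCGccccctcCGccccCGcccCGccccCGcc
Kcnd3, chr3:105451740-105451889, plus strand: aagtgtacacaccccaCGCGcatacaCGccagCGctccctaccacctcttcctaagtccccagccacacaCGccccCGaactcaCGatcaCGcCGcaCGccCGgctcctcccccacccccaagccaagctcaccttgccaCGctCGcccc
Kcnj13, chr1:87394730-87394879, minus strand: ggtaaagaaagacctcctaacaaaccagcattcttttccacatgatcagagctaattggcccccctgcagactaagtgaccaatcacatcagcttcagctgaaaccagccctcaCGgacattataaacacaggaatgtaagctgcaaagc
Kcnk16, chr14:20269270-20269419, minus strand: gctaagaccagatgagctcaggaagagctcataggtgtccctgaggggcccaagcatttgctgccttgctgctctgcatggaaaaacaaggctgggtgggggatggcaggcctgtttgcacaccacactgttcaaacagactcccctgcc
The stretch of Cacna2d1 holds 21 CpG and that of Kcnd3 13, whereas that of Kcnj13 holds 1 and that of Kcnk16 holds 0. Over the whole 300-base windows the counts are 42, 25, 5 and 2 in the same order. Among members with a window, the 30 called higher on SFEB day 10 (below) had a median of 25 CpG and the other 23 a median of 11. The 10 that reached 1 RPKM in a single library had a median of 9. Of the 30 called higher, 25 held 10 or more, while Cacng8 held 2, Kcnip4 held 7 and Kcna6 held 8. Of the other 23, 14 held 10 or more. The same split by SFEB day call was not made over all genes, so these counts and medians have no share beside them. No methylation was measured here, and these counts describe the sequence alone.

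The broadest pattern in the set was by culture day. Of the 72 members, 43, 53 and 43 reached 1 RPKM in KO + Dkk, KO and WT on SFEB day 10, and 28, 21 and 30 did so on SFEB day 6. In FBS culture 22 and 18 did so in overexpressing and control cells on day 7, and 23 and 25 on day 4. Of the 13757 genes that reached 1 RPKM in any library, 85.9%, 88.3% and 85.1% did so on SFEB day 10 and 80.8%, 81.7% and 80.2% on day 6, in KO + Dkk, KO and WT. In FBS culture 82.1% and 83.5% of them did so in overexpressing and control cells on day 7, and 81.0% and 82.4% on day 4. The summed RPKM of the members was 355.5, 343.6 and 296.9 on SFEB day 10, and 141.7, 111.3 and 144.7 on day 6, in KO + Dkk, KO and WT. It was 119.7 and 86.0 in overexpressing and control cells on day 7, and 123.7 and 139.8 on day 4. The highest value of 48 members lay on SFEB day 10, that of 10 on SFEB day 6 and that of 14 in the FBS culture. Where the highest value lay was not counted over all genes, so these counts have no share beside them.

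**Figure D1:**
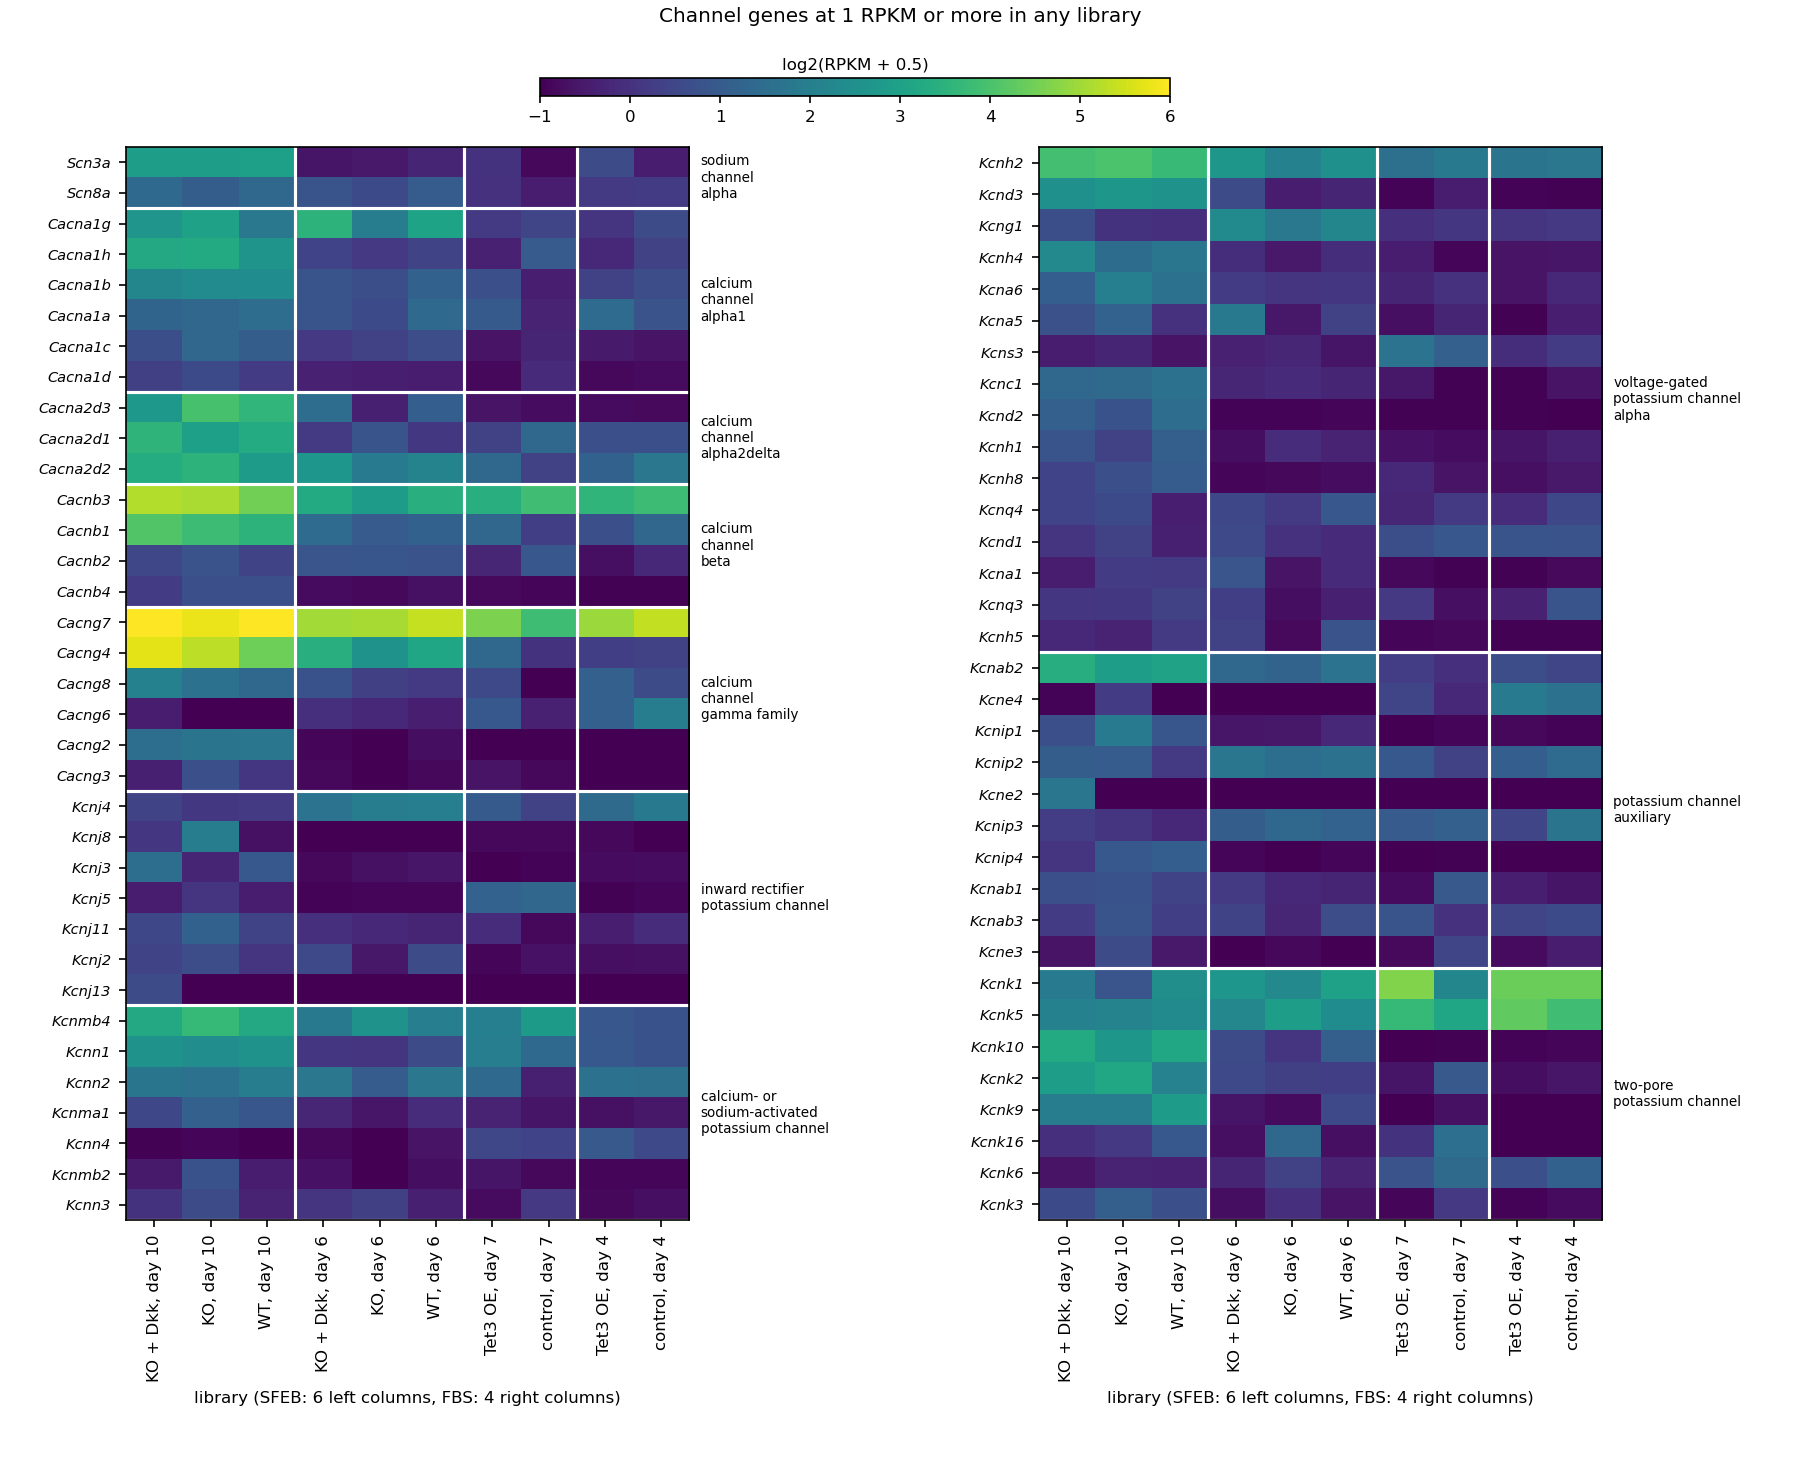
Level of 69 of the 72 members, as log2(RPKM + 0.5) on the colour scale, in the 10 libraries along the horizontal axis, with genes on the vertical axis ordered by role and then by highest value. The SFEB day 10 columns are brighter than the day 6 columns in most roles, Cacng7 is bright in every column, Kcnk5 is brightest in the 4 FBS columns, and Kcnk1 is brightest in the FBS columns other than control day 7.

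Few members were present throughout. The 6 at 1 RPKM or more in all 10 libraries were Cacng7 (13.8 to 66.5 RPKM), Cacnb3 (6.66 to 36.2 RPKM), Kcnh2 (2.48 to 15.9 RPKM), Kcnk1 (1.31 to 24.99 RPKM), Kcnk5 (3.72 to 19.0 RPKM) and Kcnmb4 (1.20 to 12.4 RPKM). At the other end, 14 members reached 1 RPKM in 1 library alone. The matching shares over all genes were not counted, so the 6 and the 14 describe the set alone. Between the cultures, 35 members reached 1 RPKM in SFEB libraries only, 8 in FBS libraries only and 29 in both. Over all 13757 genes the shares were 9.96%, 6.14% and 83.9%, against 48.6%, 11.1% and 40.3% of the members. All 6 SFEB values lay above all 4 FBS values for 18 members, 25% of the set, against 20.0% of the 13757 genes at 1 RPKM or more in any library. All 6 lay below for 5 members, 6.94%, against 12.2% of those genes. Those 5 were Kcnd1, Kcnk5, Kcnk6, Kcnn4 and Kcns3.

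The rise between SFEB day 6 and day 10 was tested with an additive limma model on log2(RPKM + 0.5), in which the 3 conditions of a day stand in for replicates. The model was fitted to all 13757 genes with p-values adjusted over all of them by the Benjamini-Hochberg method. At an adjusted p under 0.05, 36 of the 72 members were higher on day 10, against 28.2% of all genes, and 4 were lower, against 18.1% of all genes. The median difference was 0.84 on the log2 scale over the members. A gene that entered the set only through a high day 10 value was by that entry tilted toward a rise. Cacng2, Kcnd2, Kcnip4, Kcnk9, Kcnc1, Kcnh4, Kcna6, Kcnh1 and Kcnh8, named below, are among such genes. So are Cacna1d, Cacnb4, Cacng3, Kcnip1, Kcnj3, Kcnj8, Kcnk3 and Kcnma1. Scn3a, Cacna1h and Kcnk2 also reached 1 RPKM in SFEB culture on day 10 alone, although they reached it in an FBS library too. The count is therefore also given by entry. Of the 31 members at 1 RPKM or more on both SFEB days, 15 rose and 2 fell, against 27.5% and 21.2% of the 11425 genes with the same entry. Of the 28 that reached 1 RPKM on day 10 alone, 21 rose, against 63.1% of 1167 genes, and of the 5 that reached it on day 6 alone, 2 fell, against 19.7% of 320 genes. All 3 day 10 values lay above all 3 day 6 values for 42 of 64 members compared in SFEB culture (34.7% of all genes) and below them for 4 (22.7%). Without KO + Dkk on day 10 these counts were 42 (37.3%) and 4 (26.2%). In WT by itself, 31 of the 64 members above the filter in SFEB culture were at least 2-fold higher on day 10 (16.9% of 12912 genes). At least 2-fold lower were 6 (7.98%), of which 1 had reached 1 RPKM in SFEB culture only in WT on day 6. The 42 and the 31 were not split by entry, and the shares beside them are not matched for it. The 64 members include the 28 that reached 1 RPKM on day 10 alone, whose entry favoured a rise.

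**Figure D2:**
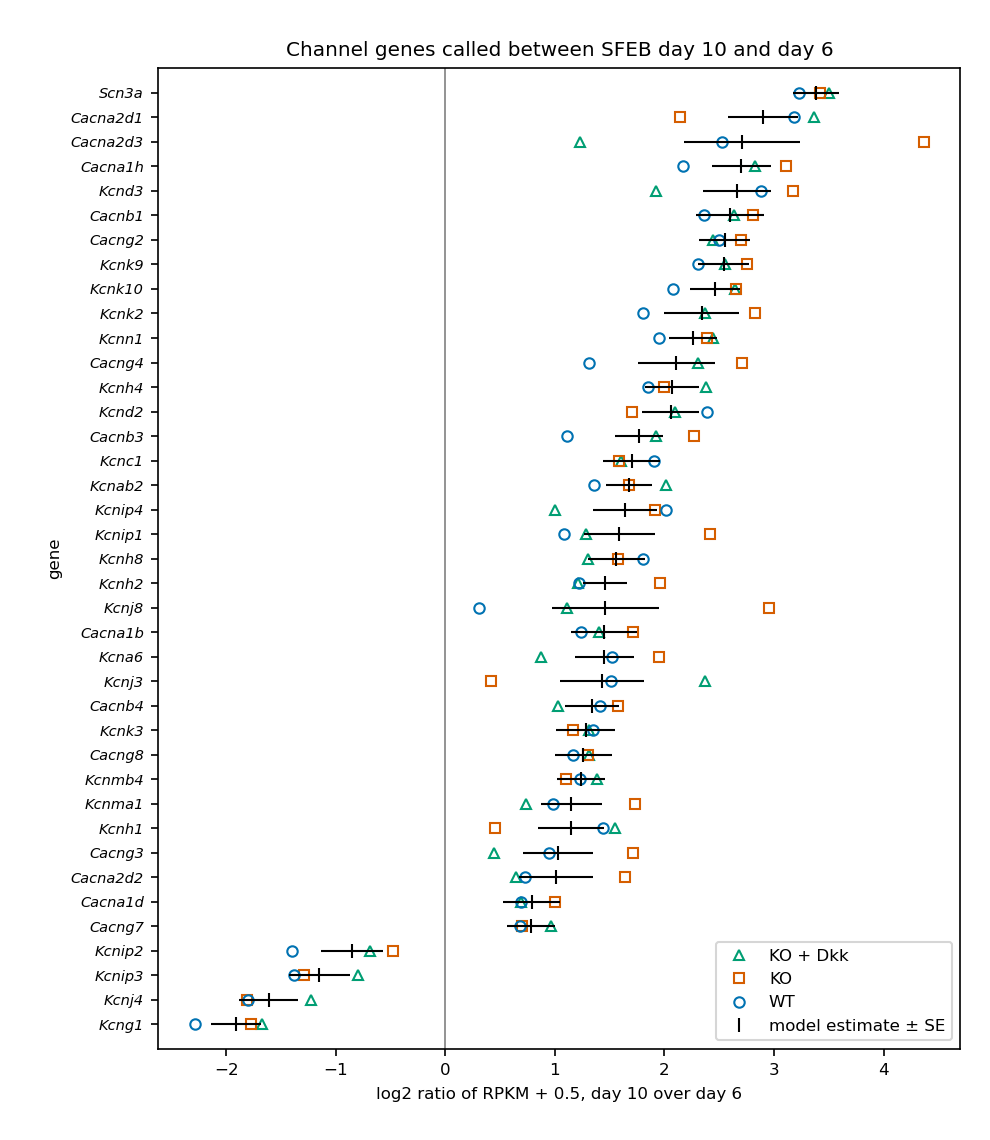
Log2 ratio of RPKM + 0.5, day 10 over day 6, on the horizontal axis for 39 of the 40 members called by the model, 1 per row, with triangles for KO + Dkk, squares for KO, circles for WT and black bars for the model estimate ± SE. Scn3a leads at 3.38, Kcng1 stands lowest at -1.91, and Cacna2d3, Kcnj3 and Kcnj8 have the conditions farthest apart.

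Among sodium channel pore subunits, Scn3a, the form most abundant in embryonic brain, had the lowest adjusted p of the set. It was at 6.96, 7.00 and 7.19 RPKM in KO + Dkk, KO and WT on day 10, against 0.16, 0.20 and 0.32 RPKM on day 6. The day 10 values were nearly equal and lay far above every day 6 value, and the model gave a log2 difference of 3.38 (SE 0.21, adjusted p = 0.000188). Scn8a, the subunit of mature axon initial segments, was at 2.12, 1.61 and 2.01 RPKM on day 10 and 1.28, 0.99 and 1.56 RPKM on day 6. Its groups were close, with a log2 difference of 0.45 (SE 0.23, adjusted p = 0.148). Scn2a1 stood at 2.62, 3.41 and 3.71 RPKM on day 10, against 0.15, 0.14 and 0.14 RPKM on day 6, a log2 difference of 2.53 (SE 0.23, adjusted p = 0.00051). The other 7 alpha subunit symbols of the pattern did not reach 1 RPKM.

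Of the 6 calcium channel pore subunits, 3 rose, where 28.2% of all genes rose and 18.1% fell. The same shares stand beside the family counts that follow, which were not split by entry. Cacna1h, a low-voltage-activated T-type channel, was at 8.85, 9.17 and 5.62 RPKM in KO + Dkk, KO and WT on day 10 and 0.82, 0.62 and 0.86 RPKM on day 6, with no overlap (log2 difference 2.70, SE 0.27, adjusted p = 0.000656). Cacna1b, the N-type channel of presynaptic terminals, was at 4.15, 4.73 and 4.80 RPKM against 1.26, 1.09 and 1.75 RPKM (1.45, SE 0.30, adjusted p = 0.00836). The L-type subunit Cacna1d passed narrowly at low level, 0.76, 1.0 and 0.68 RPKM against 0.28, 0.25 and 0.23 RPKM (0.79, adjusted p = 0.0427). Cacna1c, the other L-type subunit, missed the threshold (0.64, adjusted p = 0.0739), and the P/Q-type subunit Cacna1a did so by more (0.42, adjusted p = 0.2). The second T-type subunit, Cacna1g, had overlapping days, 5.73, 7.56 and 3.0 RPKM on day 10 and 10.9, 3.38 and 7.79 RPKM on day 6.

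The auxiliary calcium channel subunits rose in most cases. All 3 alpha2delta members, extracellular subunits that bring channels to the surface, passed the test. Cacna2d1, a gabapentin-binding subunit, was at 11.2, 7.21 and 9.42 RPKM in KO + Dkk, KO and WT on day 10 and 0.64, 1.25 and 0.59 RPKM on day 6 (2.90, SE 0.32, adjusted p = 0.000855). Cacna2d3 was at 6.12, 15.2 and 11.7 RPKM on day 10 against 2.33, 0.26 and 1.62 RPKM on day 6 (2.71, SE 0.53, adjusted p = 0.00653), the widest error of the leading genes. Of the cytoplasmic beta subunits, Cacnb1 was at 16.5, 13.6 and 11.0 RPKM on day 10 and 2.25, 1.5 and 1.75 RPKM on day 6, and Cacnb3, Cacnb1 and Cacnb4 rose by 1.77, 2.60 and 1.34 on the log2 scale. Cacnb2, a subunit of the heart L-type channel, was at 0.91, 1.23 and 0.86 RPKM on day 10 and 1.29, 1.34 and 1.22 RPKM on day 6 and was not called.

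In the Cacng family 5 of 6 members rose, and it held the highest RPKM of the set. Cacng7, an AMPA receptor regulator, was at 63.1, 54.6 and 66.5 RPKM in KO + Dkk, KO and WT on day 10, against 32.1, 33.4 and 41.1 RPKM on day 6 (0.78, SE 0.22, adjusted p = 0.0234). Cacng4, a regulator of the same receptors that is abundant in the immature brain, was at 52.3, 38.6 and 21.5 RPKM against 10.2, 5.5 and 8.36 RPKM (2.11, SE 0.35, adjusted p = 0.0033). Cacng2, stargazin, reached 1 RPKM on SFEB day 10 alone and so entered the set through the day where it is high. It was at 2.39, 2.75 and 2.89 RPKM on day 10, at 0.03, 0.00 and 0.10 RPKM on day 6, and at 0.00 in all 4 FBS libraries (2.55, SE 0.23, adjusted p = 0.000487). Cacng8 and Cacng3 rose by 1.26 and 1.03. Cacng6, a relative of the skeletal muscle gamma subunit, was at 0.48 RPKM or less in every SFEB library and at up to 3.36 RPKM in FBS culture.

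Of the 19 pore subunits of voltage-gated potassium channels, 9 rose and 1 fell. The A-type subunits Kcnd3 and Kcnd2, which open transiently below spike threshold, rose by 2.66 (SE 0.31, adjusted p = 0.000966) and 2.06 (SE 0.26, adjusted p = 0.00128). Kcnd3 was at 5.21, 6.07 and 5.60 RPKM in KO + Dkk, KO and WT on day 10 and 1.01, 0.23 and 0.33 RPKM on day 6, and Kcnd2 at 1.73, 1.19 and 2.32 RPKM on day 10 and no more than 0.04 RPKM in any other library. Kcnq3, a neuronal member of the Kcnq family, stayed between 0.10 and 0.79 RPKM in all 6 libraries.

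The Kcnh family of ether-a-go-go channels rose in 4 of its 5 members. Kcnh2, best known for repolarising the heart, was at 14.6, 15.9 and 12.8 RPKM in KO + Dkk, KO and WT on day 10 and 6.02, 3.71 and 5.22 RPKM on day 6 (1.46, SE 0.20, adjusted p = 0.00173). Kcnh4, Kcnh8 and Kcnh1 rose by 2.07, 1.56 and 1.15, while Kcnh5 stood at 0.37, 0.29 and 0.63 RPKM on day 10 and 0.81, 0.07 and 1.23 RPKM on day 6. Kcnc1, a fast-spiking channel, and Kcna6 rose by 1.70 and 1.45.

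Kcng1 went the other way. This electrically silent subunit, which modifies other potassium channel subunits, was at 1.10, 0.51 and 0.46 RPKM in KO + Dkk, KO and WT on day 10 and 4.61, 2.96 and 4.18 RPKM on day 6, and fell by 1.91 on the log2 scale (SE 0.23, adjusted p = 0.00107). The other 3 members that fell were Kcnj4, Kcnip3 and Kcnip2. Kcnj4, a strong inward rectifier, was at 0.85, 0.59 and 0.65 RPKM on day 10 and 2.66, 3.33 and 3.50 RPKM on day 6 (adjusted p = 0.00352). Day 10 lay below day 6 in each condition for all 4.

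The cytoplasmic Kcnip proteins, partners of the Kcnd channels, split. Kcnip4 and Kcnip1 rose by 1.64 (SE 0.29, adjusted p = 0.00461) and 1.59 (SE 0.32, adjusted p = 0.00728). Kcnip3, also known as a calcium-sensing transcriptional repressor, fell by 1.15 (SE 0.28, adjusted p = 0.015), and Kcnip2, the heart partner of Kcnd channels, fell by 0.85 (SE 0.28, adjusted p = 0.0456). Kcnip4 was at 0.56, 1.39 and 1.64 RPKM in KO + Dkk, KO and WT on day 10 and at 0.03 RPKM or less in 7 other libraries, whereas Kcnip3 was at 0.71, 0.54 and 0.38 RPKM on day 10 against 1.60, 2.04 and 1.79 RPKM on day 6. Kcnab2, the cytoplasmic partner of Kcna channels, was at 9.76, 6.99 and 7.68 RPKM on day 10 and 2.04, 1.84 and 2.69 RPKM on day 6 (1.68, SE 0.21, adjusted p = 0.00125).

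Kcnk channels carry the resting potassium current. Of the 8 members, 4 rose, and these were the mechanosensitive Kcnk2 and Kcnk10 and the acid-sensitive Kcnk3 and Kcnk9. Kcnk10 was at 9.14, 5.99 and 8.65 RPKM in KO + Dkk, KO and WT on day 10, at 1.04, 0.53 and 1.66 RPKM on day 6 and at 0.04 RPKM or less in FBS culture (2.46, SE 0.23, adjusted p = 0.00051). Kcnk9 was at 3.37, 3.40 and 6.77 RPKM against 0.16, 0.08 and 0.97 RPKM (2.54, SE 0.23, adjusted p = 5e-04), with WT highest on both days. Kcnk2 was at 7.01, 8.45 and 3.76 RPKM against 0.95, 0.76 and 0.72 RPKM (2.34, SE 0.34, adjusted p = 0.00207), with WT lowest on both days. Kcnk1 and Kcnk5 had lower values on day 10 than on day 6 on average but were not called (adjusted p = 0.121 and 0.185).

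Among calcium-activated channels, Kcnn1, which gives the afterhyperpolarisation, was at 5.38, 4.91 and 5.44 RPKM in KO + Dkk, KO and WT on day 10 and 0.58, 0.53 and 1.04 RPKM on day 6 (2.26, SE 0.22, adjusted p = 0.000546). Its relative Kcnn2 was at 2.80, 2.59 and 3.31 RPKM on day 10 and 2.93, 1.56 and 2.92 RPKM on day 6, with overlapping days. The large-conductance pore subunit Kcnma1 and its neuronal partner Kcnmb4 rose by 1.15 (SE 0.28) and 1.24 (SE 0.22). Of 7 inward rectifiers 2 rose, near the share of 28.2% over all genes. The G-protein-gated Kcnj3 rose by 1.43 (SE 0.38, adjusted p = 0.0212), with KO at 0.33 RPKM on day 10 well below KO + Dkk at 2.39 and WT at 1.41 RPKM. Kcnj8 passed at an adjusted p of 0.046, with most of the difference in the KO library.

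Read by tissue, the lists were chosen with earlier results known and overlap with the set, so their counts describe it. In the same model 28.2% of all genes rose and 18.1% fell. Of 16 neuronal channel genes tested, Scn2a1 included, 10 rose and 0 fell, with a median log2 difference of 1.40. Of 13 channel genes known from the heart, 5 rose (Cacna2d1, Cacna1h, Kcnh2, Kcnj3 and Kcnj8) and Kcnip2 fell, with a median of 0.64. Of the 4 epithelial potassium channel genes tested (Kcnk1, Kcnk5, Kcnn4 and Kcne3) 0 were called. Genes outside the set that work with these channels moved in the same direction. Of 24 tested, 16 rose and 1 fell, with a median of 1.14. Scn3b, a sodium channel beta subunit, was at 16.3, 21.0 and 16.3 RPKM in KO + Dkk, KO and WT on day 10 and 0.94, 0.69 and 0.74 RPKM on day 6 (3.83, SE 0.21, adjusted p = 0.000171). The pacemaker channels Hcn4 and Hcn3 rose by 2.14 and 2.12, the Kcnd partners Dpp6 and Dpp10 by 2.62 and 2.68, and the leak channel Nalcn and its partner Unc79 by 1.86 and 2.47. The 1 that fell was Rest, a repressor of neuronal genes outside neurons, at 5.06, 5.25 and 4.37 RPKM on day 10 and 10.7, 11.0 and 8.74 RPKM on day 6 (adjusted p = 0.00209).

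The loss of Tet3 was examined by setting KO against WT on each day. With 1 library per arm there is no test of 1 day, so a ratio of 2-fold or more of RPKM + 0.5 is counted and set beside the share of all 12912 genes compared. On day 6, 1 of 64 members was higher in KO (4.89% of all genes) and 7 were lower, 10.9% of the members (2.18% of all genes). The median log2 ratio was -0.25 over the members and 0.00 over all genes. On day 10, 7 members were higher (8.28% of all genes) and 2 were lower (1.96%), and the medians were 0.17 and 0.06. Of those 7, 3 (Kcnj8, Kcnmb2 and Kcne3) reached 1 RPKM in KO on day 10 alone and so had entered the comparison through the library where they are high. Not 1 member was 2-fold higher on both days (2.11% of all genes) or 2-fold lower on both (0.372%). The model called 0 members for the knockout term (0.196% of all genes higher and 0.0145% lower), with 1 higher and 3 lower at an unadjusted p under 0.05. The lowest adjusted p was 0.156, for Kcnk9.

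**Figure D3:**
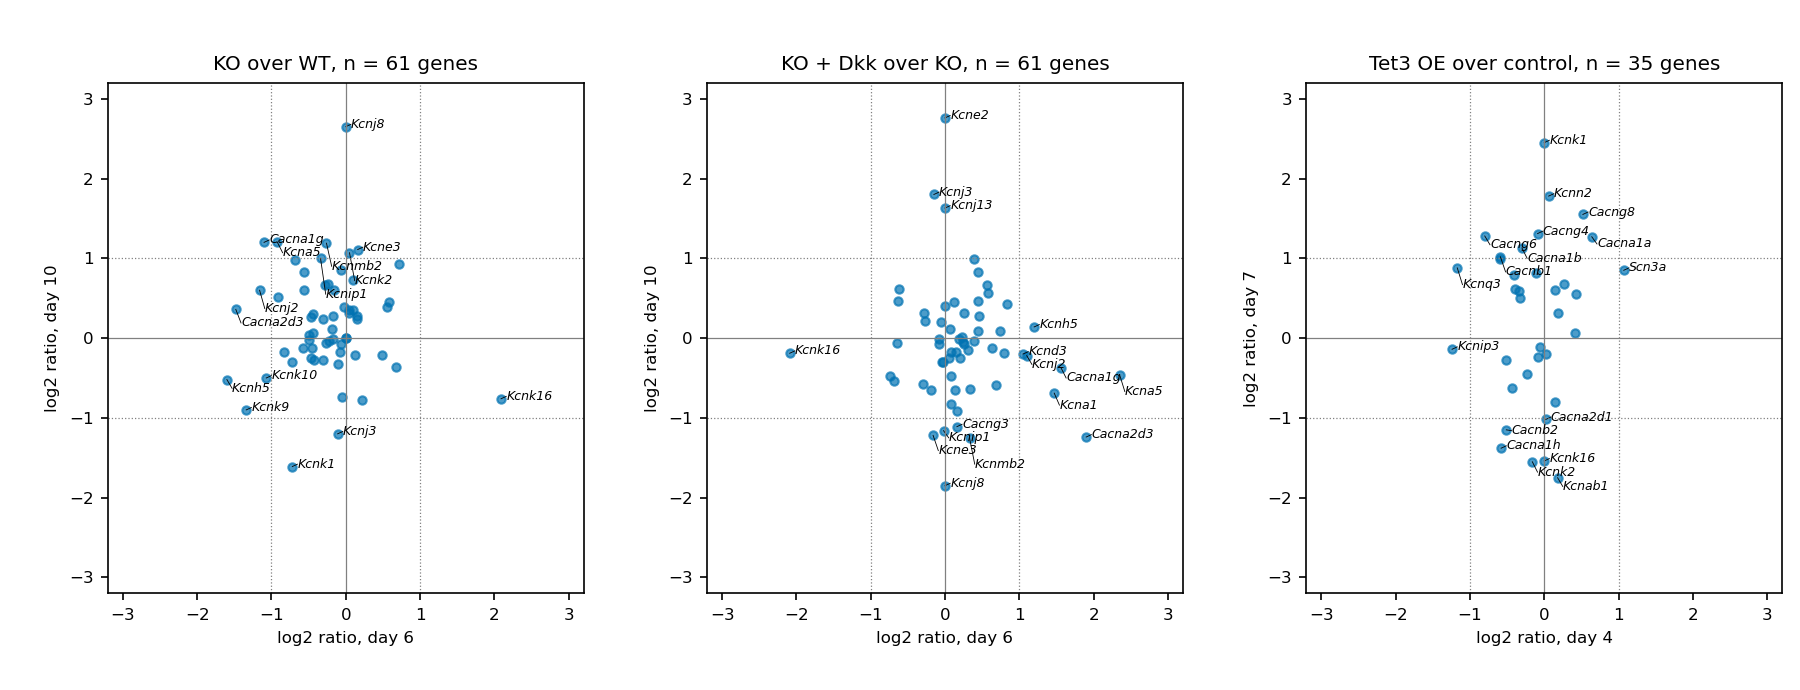
Log2 ratio of RPKM + 0.5 on the earlier day (horizontal) and later day (vertical) for the members drawn, 1 point per gene, for KO over WT, KO + Dkk over KO, and Tet3 overexpression over control. Dotted lines mark 2-fold, named genes pass it on at least 1 day, and no point lies past it in the same direction on both days.

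The 7 members lower in KO on day 6 included Kcnh5, Cacna2d3, Kcnk9, Kcnj2, Cacna1g and Kcnk10. Of the 7, 1 (Kcnh5) had reached 1 RPKM in SFEB culture only in WT on day 6, where it is high. Cacna1g had the most reads, 3.38 RPKM in KO and 7.79 RPKM in WT, a log2 ratio of -1.10 (95% counting interval of the read ratio -1.41 to -1.0). Kcnk9 was at 0.08 and 0.97 RPKM (-1.34, interval -4.72 to -2.70). The intervals cover counting error alone and carry no pseudocount, which is why they can lie beyond the ratio. The neuron marker sum was also lower in KO on that day, 152.7 RPKM against 290.2 RPKM in WT, and its part in these differences was not tested. The 1 member higher in KO was Kcnk16, a background channel known from the pancreas, at 2.09 RPKM in KO and 0.11 RPKM in WT (2.09, interval 2.05 to 7.12).

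On day 10 the 7 members higher in KO made up 10.9% of the members, against 8.28% of all genes. Cacna1g, lower in KO on day 6, was among them. Kcnj8, the pore of the vascular ATP-sensitive potassium channel, was at 3.38 RPKM in KO and 0.12 RPKM in WT (log2 ratio 2.65, interval 3.35 to 7.25). Cacna1g was at 7.56 and 3.0 RPKM (1.20, interval 1.13 to 1.54), Kcna5, known from the atrium, at 1.79 and 0.50 RPKM (1.20, interval 1.04 to 2.76) and Kcnk2 at 8.45 and 3.76 RPKM (1.07, interval 0.74 to 1.60). Kcnmb2, Kcne3 and Kcnip1 completed the 7, the last at 2-fold. The summed level of 7 fibroblast and smooth muscle markers, led by Col3a1 at 381.8 RPKM, was 500.6 RPKM in KO and 39.6 RPKM in WT, and that of 9 cardiac muscle markers was 144.2 and 6.43 RPKM. Their part in the channel differences was not tested. The 2 lower members were Kcnk1, at 1.31 RPKM in KO and 5.04 RPKM in WT (-1.61, interval -2.66 to -1.32), and Kcnj3, at 0.33 and 1.41 RPKM (-1.20, interval -2.98 to -1.24).

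The effect of Dkk on knockout cells was read from KO + Dkk against KO, a comparison that shares the KO libraries with the one above. On day 6, 8 of 64 members were 2-fold higher with Dkk (2.18% of all genes) and 1 was lower (3.58%), with a median log2 ratio of 0.16 over the members and 0.01 over all genes. On day 10, 3 were higher (1.7%) and 6 lower (5.23%), with medians of -0.07 and -0.01. Of these, 2 of the 3 higher and 4 of the 6 lower had reached 1 RPKM in SFEB culture only in the library where they are high. On day 6 the same held for 1 of the 8 higher, Kcna1. No member was 2-fold in the same direction on both days (0.364% of all genes higher and 1.56% lower), and the model called 0 members for Dkk (0.0145% and 0.116% of all genes), with 0 at an unadjusted p under 0.05. Against WT, KO + Dkk had 1 member higher and 1 lower on day 6 (1.59% and 0.984% of all genes) and 3 higher and 1 lower on day 10 (4.6% and 1.69%). Of those 3, 2 had reached 1 RPKM in SFEB culture only in KO + Dkk on day 10.

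The 8 on day 6 were led by Kcna5, at 3.03 RPKM in KO + Dkk, 0.19 RPKM in KO and 0.81 RPKM in WT. Cacna1g was at 10.9, 3.38 and 7.79 RPKM in the same order, Cacna2d3 at 2.33, 0.26 and 1.62 RPKM, and Kcna1, a brake on axonal excitability, at 1.30, 0.15 and 0.41 RPKM. For each of these 4 the KO value was the lowest of the 3 and the KO + Dkk value the highest. Kcnh5, at 0.81, 0.07 and 1.23 RPKM, and Kcnj2, at 0.96, 0.18 and 1.02 RPKM, also had KO lowest but WT highest. Kcnk16 ran the opposite way, at 0.11, 2.09 and 0.11 RPKM. On day 10 Kcnj8 was at 0.58, 3.38 and 0.12 RPKM, Kcnip1 at 1.13, 3.14 and 1.32 RPKM and Kcnmb2, a subunit that inactivates large-conductance channels, at 0.21, 1.19 and 0.24 RPKM, with KO alone high. The fibroblast and smooth muscle marker sum was 63.3, 500.6 and 39.6 RPKM in KO + Dkk, KO and WT, and its part was not tested.

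2 members were seen only in KO + Dkk on day 10. Kcne2, an auxiliary subunit of potassium channels in choroid plexus and stomach, was at 2.88 RPKM there and listed at 0.00 in the other 9 libraries. Kcnj13, an inward rectifier of choroid plexus and retinal pigment epithelium, was at 1.05 RPKM and likewise 0.00 elsewhere. The estimated reads were 178 for Kcne2 and 30 for Kcnj13, against 0 in KO on the same day. In that KO library 3 reads would be worth 0.166 and 0.36 RPKM. The KO + Dkk values were 17.4-fold and 2.92-fold these 3-read values, which are a reference level and not a lower bound. Counting intervals of the log2 read ratio of KO + Dkk over KO began lower, at 3.81 for Kcne2 and 1.16 for Kcnj13. The KO + Dkk library of day 10 is also the deepest of the SFEB culture, at 37200000 estimated reads. The choroid plexus gene Ttr was at 154.7 RPKM there, 9.28 RPKM in KO and 6.48 RPKM in WT, and 12 choroid plexus markers, listed after these values were seen, summed to 186.8, 30.6 and 23.3 RPKM. Without Ttr the other 11 summed to 32.1, 21.4 and 16.9 RPKM. In control cells on FBS day 7, where Kcne2 and Kcnj13 were at 0.00, Ttr stood at 76.1 RPKM and the 12 markers summed to 141.4 RPKM, or 65.3 RPKM without Ttr. The part of any cell type in the Kcne2 and Kcnj13 values was not tested.

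**Figure D4:**
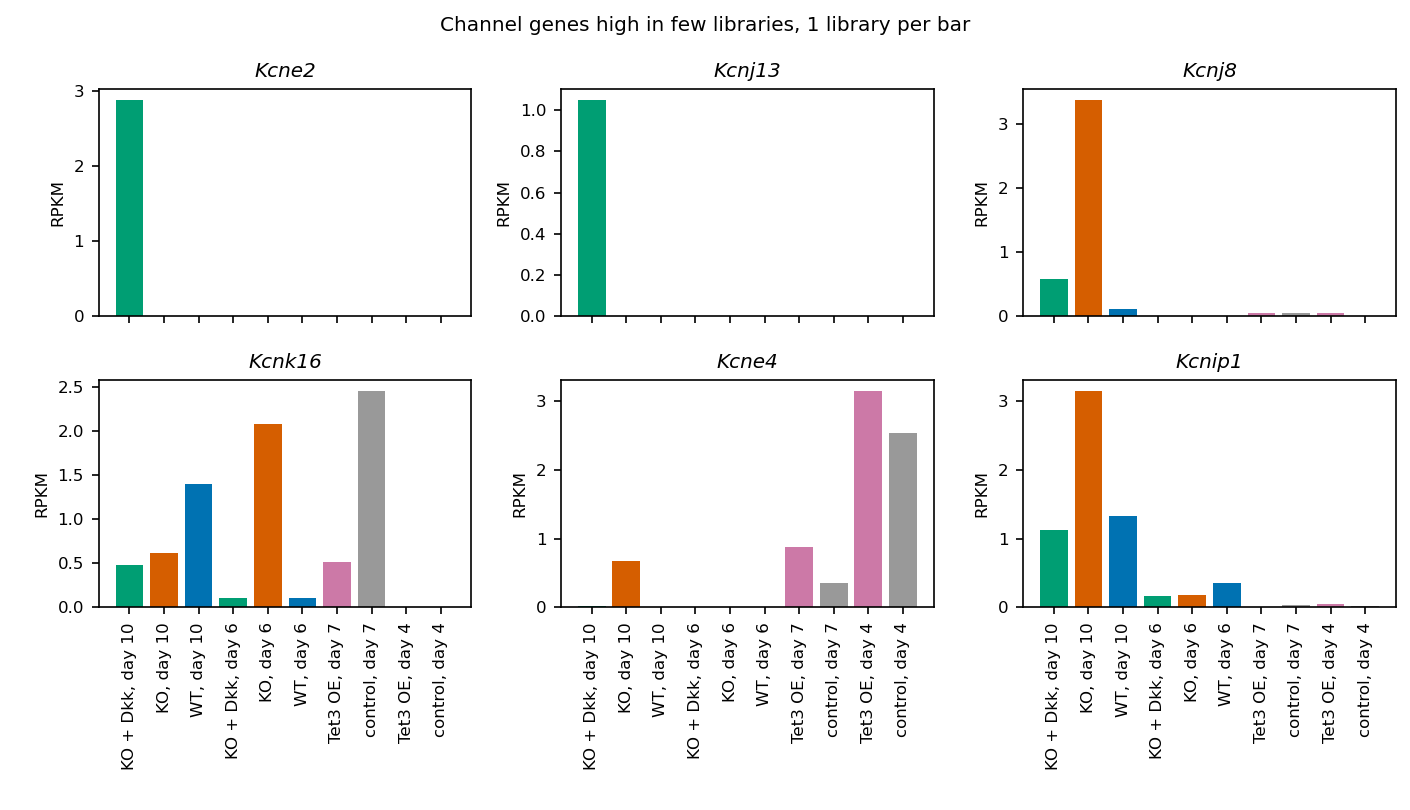
RPKM on the vertical axis of 6 members that were high in few libraries, 1 bar per library, ordered KO + Dkk, KO and WT on SFEB day 10 and day 6, then overexpressing and control cells on FBS day 7 and day 4. Kcne2 and Kcnj13 have a bar in KO + Dkk on day 10 alone, Kcnj8 and Kcnip1 are highest in KO on day 10, and Kcne4 is highest on FBS day 4.

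In FBS culture 37 members passed the filter. Control cells were first compared between the days. Of the 37 members, 15 were at least 2-fold lower on day 7 than on day 4 (8.73% of 12387 genes). At least 2-fold higher were 6 (11.5%), and the median log2 ratio was -0.50 over the members and -0.01 over all genes. Of the 6 higher, 4 had reached 1 RPKM in FBS culture only in control cells on day 7. Of the 15 lower, 2 had reached it only in control cells on day 4. Those lower included the neuronal Cacna1a, Cacna1b and Kcnq3 and the small-conductance Kcnn2, which was at 0.27 RPKM on day 7 and 2.51 RPKM on day 4. Kcnk1, a background channel of many epithelia and neurons, was at 4.15 RPKM on day 7 and 20.9 RPKM on day 4 in control cells. Over the same days the neuron marker sum in control cells was 55.4 RPKM on day 7 and 183.0 RPKM on day 4, the sum of 4 pluripotency markers was 231.4 and 1206 RPKM, and the fibroblast and smooth muscle sum was 797.0 and 102.8 RPKM. Their part was not tested.

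**Figure D5:**
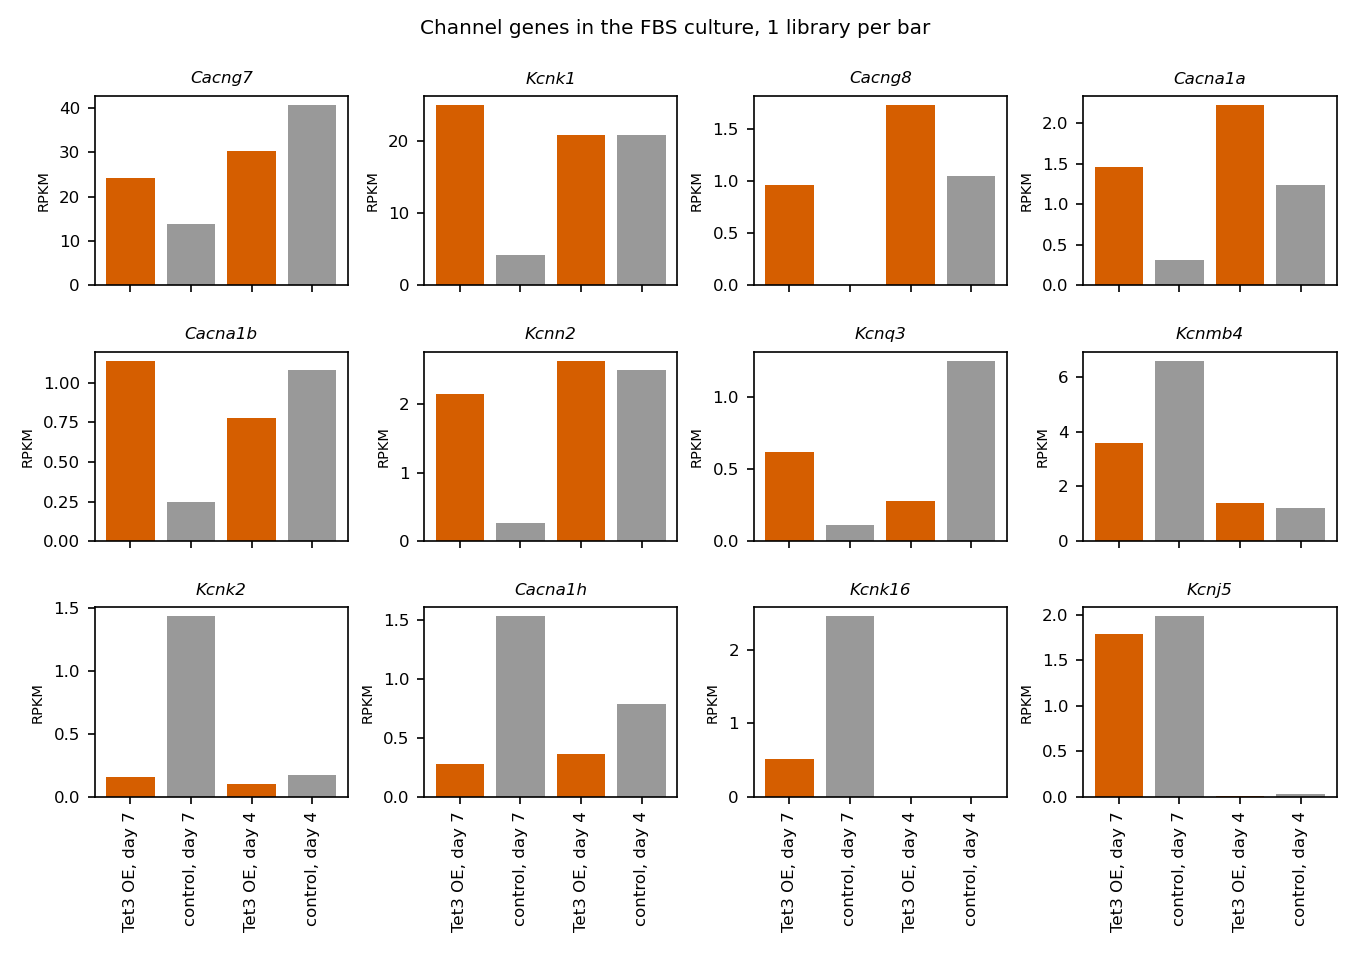
RPKM on the vertical axis of 12 members in the 4 FBS libraries, 1 bar each, ordered overexpressing and control cells on day 7 and then on day 4. The first 7 genes are lowest in control cells on day 7, Kcnmb4, Kcnk2, Cacna1h and Kcnk16 are highest there, and Kcnj5 is near 0 on day 4 in both conditions.

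Overexpressing cells were set against control cells on each day. On day 7, 8 of 37 members were 2-fold higher with overexpression (6.96% of all genes) and 6 were lower (11.1%), with a median log2 ratio of 0.59 over the members and -0.03 over all genes. The count of 8 depended on the scale, with 15 at a pseudocount of 0.1, 14 with TPM scaling and 2 at a pseudocount of 1. Of the 8 higher, 1 (Cacng4) had reached 1 RPKM in FBS culture only in overexpressing cells on day 7. Of the 6 lower, 5 had reached 1 RPKM in FBS culture only in control cells on day 7. On day 4, 1 was higher (1.72%) and 2 were lower (3.49%), and the medians were -0.11 and -0.07. The 1 higher (Scn3a) and 1 of the 2 lower (Kcnq3) had reached 1 RPKM in FBS culture only in the library where they are high. Not 1 member was 2-fold in the same direction on both days (0.807% of all genes higher and 0.912% lower). For overexpression the model called 0 members (0.0436% of all genes higher and 0.0509% lower), with 3 higher and 2 lower at an unadjusted p under 0.05 and a lowest adjusted p of 0.138, for Scn3a.

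For most of the members named on day 7, control cells on that day stood apart from the other 3 libraries. Kcnk1 was at 24.99 RPKM in overexpressing and 4.15 RPKM in control cells on day 7 (log2 ratio 2.45, interval 2.36 to 2.82), against 20.8 and 20.9 RPKM on day 4. Kcnn2 was at 2.15 and 0.27 RPKM on day 7 and 2.64 and 2.51 RPKM on day 4. Overexpressing cells on both days and control cells on day 4 were thus alike for both genes and control day 7 was low. Cacng8, Cacna1a and Cacna1b had the same shape, with control day 7 at 0.00, 0.31 and 0.25 RPKM and the other libraries at 0.78 RPKM or more. Kcnab1, Kcnk2, Kcnk16, Cacna1h, Cacnb2 and Cacna2d1 were lower in overexpressing cells on day 7, and control day 7 was the highest of the 4 libraries for each. For all of these but Cacna2d1 the filter had set that order, since they reached 1 RPKM in FBS culture only in control cells on day 7. Cacng4 differed, at 2.03 and 0.52 RPKM in overexpressing and control cells on day 7 and 0.73 and 0.81 RPKM on day 4, with overexpressing day 7 apart. The neuron marker sum was 250.8 RPKM in overexpressing and 55.4 RPKM in control cells on day 7, the fibroblast and smooth muscle sum 47.6 and 797.0 RPKM, and their part in the channel differences was not tested.

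On day 4, Scn3a was at 1.03 RPKM in overexpressing and 0.23 RPKM in control cells (1.07, interval 1.79 to 2.54), and on day 7 at 0.51 and 0.06 RPKM. It was the higher in overexpressing cells on both days, and on day 7 its ratio stayed under 2-fold only with the 0.5 RPKM added to both values. Kcnip3 was at 0.87 and 2.74 RPKM on day 4 (-1.24, interval -2.10 to -1.23) and 1.51 and 1.71 RPKM on day 7. Kcnq3 was at 0.28 and 1.25 RPKM on day 4 (-1.17, interval -2.52 to -1.81) and 0.62 and 0.11 RPKM on day 7.

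For the FBS days, the same model called 1 member between day 7 and day 4 (0.422% of all genes higher and 0.0291% lower). Kcnj5, a G-protein-gated inward rectifier of atrium and adrenal gland, was at 1.79 RPKM in overexpressing and 1.98 RPKM in control cells on day 7, against 0.01 and 0.03 RPKM on day 4 (log2 difference 2.20, SE 0.31, adjusted p = 0.0495). Kcnj5 was at 0.55 RPKM or less in every SFEB library. It reached 1 RPKM on FBS day 7 alone and so entered the set through the day where it is high. The call ended in several alternatives and when KO + Dkk on day 10 was left out. Kcnmb4 was next, at 3.58 and 6.59 RPKM on day 7 and 1.38 and 1.20 RPKM on day 4 (1.59, SE 0.27, adjusted p = 0.0811). Kcne4, an inhibitory auxiliary subunit, was at 0.88 and 0.36 RPKM on day 7 and 3.14 and 2.53 RPKM on day 4 (-1.61, SE 0.39, adjusted p = 0.153). Kcne4 likewise reached 1 RPKM only on the day where it is high, FBS day 4.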

How the data were processed

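Total RNA of 10 libraries was measured, 1 per condition and day. The authors deposited RPKM values to 2 decimals for 21937 gene symbols. Per the submitters' processing notes, HTSeq and the build mm9 were used. Aligner, annotation and strand setting were not given in the sources used here, so values of overlapping genes and close paralogs are uncertain. Depth was estimated from whole-read steps of 3007 genes with 1 annotated transcript; 67.4% to 79.3% of their low values lay within 0.15 read of a whole number, too few to recover counts. Genes at 1 RPKM or more in a library of a culture were compared on log2(RPKM + 0.5), which understates changes of low genes. Read-ratio intervals are 95% Clopper-Pearson and cover counting error only. limma 3.58.1 (R 4.3.3) fitted culture and day, knockout, Dkk and overexpression to 13757 genes, with 3 residual degrees of freedom, so days and conditions stand in for replicates and p-values measure only the spread between these libraries. It was tested on simulated data. The SFEB and FBS day contrasts of this model, the ordering counts and the comparison of KO + Dkk with WT were added after seeing the data. Members, gene lists and tests were chosen with earlier results of these data known. Named genes were the highest single-library values, the largest day changes, all sodium and calcium pore subunits, listed tissue channels, members called by the model, members moving in opposite directions and those nearest the limit; others were named after their values were seen. Alternatives were the pseudocount, the filter, TPM scaling, SFEB libraries alone and leaving out KO + Dkk on day 10. Results of 3 members are not reported here by name and these genes are not drawn in the figures; they stay in all counts.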

Additional observations from a re-analysis of the deposited data

Results flagged for a closer look

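Cacna1g, a T-type calcium channel pore subunit, was 2-fold or more in opposite directions on the days of the comparison of KO with WT. Its log2 ratio was 1.20 on day 10 (7.56 RPKM in KO and 3.0 RPKM in WT) and -1.10 on day 6 (3.38 and 7.79 RPKM). The difference between the days was not tested, since each value is 1 library.

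Cacna2d3, an alpha2delta calcium channel subunit, was so in the comparison of KO + Dkk with KO. Its log2 ratio was -1.24 on day 10 (6.12 RPKM in KO + Dkk and 15.2 RPKM in KO) and 1.90 on day 6 (2.33 and 0.26 RPKM). This difference was not tested either.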

How the results depend on the processing

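Under TPM scaling, the members counted as 2-fold kept their sign in the comparisons of KO with WT, KO + Dkk with KO, overexpression with control, and the days in WT and in control cells, and the median of all genes moved by at most 0.10 in size. A pseudocount or a filter cannot turn a sign, and KO + Dkk against WT was not recomputed. The counts moved more. With a pseudocount of 0.1, the KO against WT counts were 3 higher and 13 lower on day 6, 4 lower on day 10 and 1 higher on both days. KO + Dkk against KO then had 3 lower on day 6, and overexpression against control 15 higher on day 7, 1 higher on both days and 1 lower on both days. With a pseudocount of 1, KO against WT had 3 lower on day 6, 2 higher and 1 lower on day 10, KO + Dkk against KO had 5 higher on day 6 and 2 lower on day 10, and overexpression against control had 0 higher with 1 lower on day 4, then 2 higher with 3 lower on day 7. With a filter of 5 RPKM, which leaves 21 members in SFEB culture, KO against WT had 0 higher with 4 lower on day 6, then 2 higher with 1 lower on day 10, and KO + Dkk against KO had 3 higher with 0 lower on day 6, then 0 higher with 1 lower on day 10. Under that filter overexpression against control had 0 either way on day 4 and 1 higher with 0 lower on day 7, WT day 10 against day 6 had 16 higher and 1 lower, and control day 7 against day 4 had 1 higher and 2 lower. With TPM scaling, KO + Dkk against KO had 3 lower on day 6, and overexpression against control had 14 higher on day 7 and 1 higher on both days. The cause of these shifts beyond the settings' own construction was not tested.

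In the model, the SFEB day calls came to 18 higher and 0 lower with the filter of 5 RPKM and 2 lower with no filter, and to 27 higher and 3 lower without KO + Dkk on day 10. The FBS day call of Kcnj5 was lost, leaving 0 higher, with a pseudocount of 1, with no filter, with the filter of 5 RPKM and without KO + Dkk on day 10, and with no filter 1 member was lower. With no filter 2 members were called higher with overexpression. The model's knockout and Dkk terms already pair the SFEB days by condition. For conditions compared within a day, no paired analysis was possible because each has 1 library. Values near 0 in the SFEB libraries of 10100000 to 11300000 reads rest on few reads.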
